A study of Mus musculus with 6 samples.

Results

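The genes described here encode the cytokine feedback inhibitors Socs1, Socs2, Socs3, Socs4, Socs5, Socs6, Socs7 and Cish, together with Pias1 and Pias3. Members were found by their exact gene symbol in the count table, and each symbol matched 1 row, giving 10 of the 33000 genes in the table. TruSeq libraries, the standard Illumina protocol for full-length mRNA, were generated from frontal cortex, with 3 mice homozygous for the GFAP-IL6 transgene and 3 wild-type (WT) mice. All mice were 3 months old, and no further treatment is named in the labels. The study's text names the C57BL/6 strain for the WT mice and names none separately for the GFAP-IL6 mice. In GFAP-IL6 mice the promoter of the astrocyte gene Gfap drives the inflammatory cytokine IL6, so that its source is astrocytes and other cells in which that promoter is active. The comparison examined here is GFAP-IL6 against WT. Nothing in the labels says more of the replicates than their numbers, so p values measure the spread between these 3 samples per group.

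IL6 binds its receptor and the shared signalling chain gp130, which activates Janus kinases (JAK) that phosphorylate STAT transcription factors, mainly STAT3. SOCS proteins and CISH form a family that restrains signalling from cytokine and growth factor receptors, and SOCS3 is its best known inhibitor of this route. Each protein of the family has an SH2 domain that binds phosphorylated tyrosine and a SOCS box that recruits a ubiquitin ligase. Several of their genes are themselves induced by STAT factors, which closes a negative feedback loop. PIAS proteins are SUMO ligases that were first described as inhibitors of activated STAT factors and are not known mainly as induced feedback genes.

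Total counts ranged from 7559524 to 16877001 per library, and each GFAP-IL6 library was shallower than each WT library, so levels are given as CPM (counts per 1 M of the TMM-scaled library size) or, between genes, as TPM (counts per gene length, scaled to the same total in each library). Markers of neurons summed to between 12170 and 13631 CPM in every library. The T cell genes Cd3d, Cd3e and Cd3g had 3 counts or fewer in every library. A pair of WT libraries stood apart by markers of neighbouring tissue. WT replicate 3 held 8766 counts of the choroid plexus gene Ttr against 15 to 358 in the other libraries, and WT replicate 2 held 236 counts of the striatal gene Adora2a against 16 to 40. As the tissue was sequenced in bulk, more cells of a type and more RNA per cell cannot be told apart. As a check of the labels, the counts of Il6 were 0, 2 and 0 among WT mice against 12, 10 and 24 among GFAP-IL6 mice, and Gfap was at 94.5 ± 24.8 CPM in WT against 678 ± 179 CPM (SD, n = 3 each; edgeR adjusted p of 5.49e-06).

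Socs3 rose in GFAP-IL6 cortex, and it was the only one of the 9 members tested that passed the threshold of an adjusted p under 0.05 in either direction. The other 8 members tested did not pass it, and their log2 fold changes lay between -0.21 and 0.19. Differential expression was tested with edgeR on all genes at once, and p values were adjusted over the 15341 genes that passed the filter on low counts. Of these, 2.86% passed the same threshold, with 2.65% higher and 0.209% lower. The median log2 fold change was 0.10 over the 9 members tested and -0.004 over all genes tested. At an unadjusted p under 0.05, Socs3 was again the only one of the 9, where 20.5% of all genes passed. Socs1 did not pass the filter and is described by its counts.

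**Figure D1:**
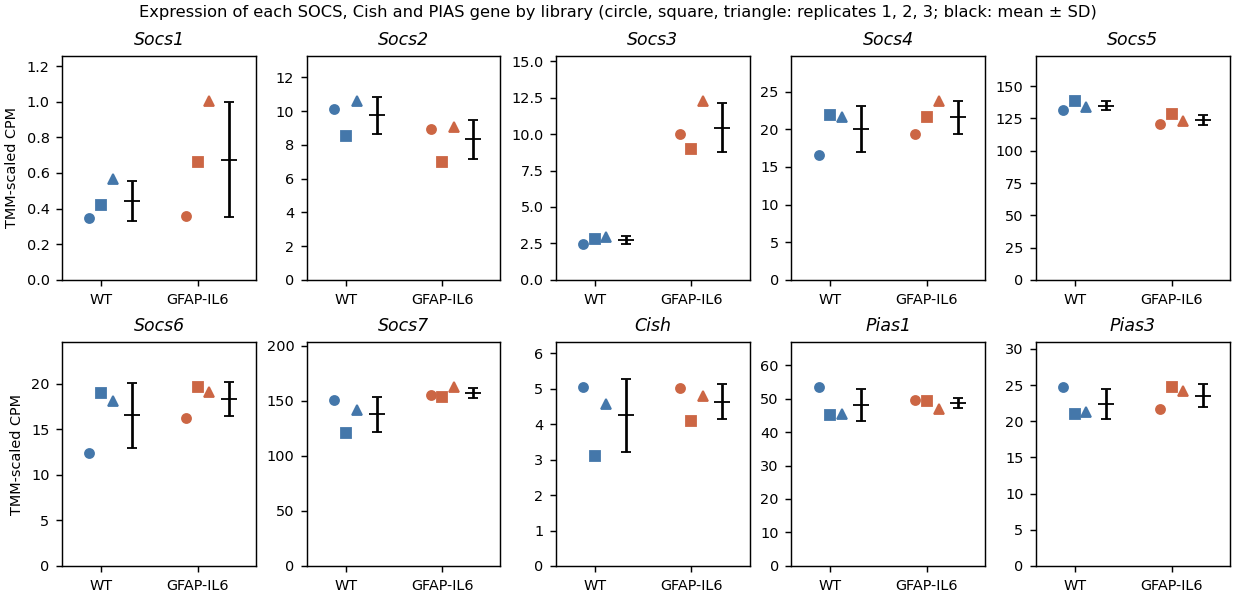
TMM-scaled CPM of each member in each library, with WT in blue and GFAP-IL6 in orange. Symbols mark replicate numbers and black bars the mean ± SD of 3 libraries. Only for Socs3 do the groups lie far apart, with 2.44 to 2.95 CPM in WT and 8.98 to 12.3 CPM in GFAP-IL6.

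Socs3 (ENSMUSG00000053113.3, chromosome 11, 117966079 to 117970047, minus strand, GRCm38) encodes the inhibitor that binds gp130 and the kinases beside it, and it is the best known feedback inhibitor of IL6 and STAT3. WT replicates 1, 2 and 3 held 28, 47 and 47 reads of Socs3 and the GFAP-IL6 replicates 112, 68 and 110 reads, so that each shallower GFAP-IL6 library held more Socs3 reads than any WT library. The levels were 2.44, 2.80 and 2.95 CPM in WT and 10.04, 8.98 and 12.3 CPM in GFAP-IL6. All GFAP-IL6 mice were above all WT mice, and the lowest GFAP-IL6 level was far above the highest WT level. The mean rose from 2.73 ± 0.264 CPM (SD, n = 3) to 10.4 ± 1.68 CPM (SD, n = 3). The log2 fold change was 1.92 ± 0.19 (SE), a 3.79-fold rise with a 95% interval of 2.86-fold to 5.02-fold, and edgeR gave an adjusted p of 7.37e-05. Socs3 was the 38th gene by p value of all genes tested. With the added threshold of an absolute log2 fold change over 1, as used by the study, Socs3 was again the only member called, where 1.38% of all genes were. GFAP-IL6 replicate 3, which had the most Il6 counts, also had the highest Socs3 level. Replicate 1 held 12 Il6 counts and replicate 2 held 10, but in 11072008 and 7559524 total counts. Relative to depth, Il6 was thus higher in replicate 2, whereas Socs3 was lower there. These replicates differed in Socs3 by less than the SD of the group, and Il6 counts this low do not order them.

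Sequence around the start of Socs3 and Cish is shown because STAT factors bind the palindrome TTCNNNGAA, and these were the members whose promoter window held it. Windows reached from 250 bases before to 50 bases after the RefSeq transcription start on GRCm38.p6, and RefSeq windows were matched for Socs1, Socs3, Socs4, Cish, Pias1 and Pias3. No window was matched for Socs2, Socs5, Socs6 and Socs7. The palindrome reads the same on both strands, and capitals mark each match. The sequence of Socs3 is the 250 bases before the RefSeq start (chr11:117969367-117969616, minus strand). That of Cish spans the RefSeq start itself (chr9:107296654-107296678, plus strand). Both stretches lie inside the GENCODE bounds printed here for these genes, which begin at 117970047 for Socs3 and at 107296026 for Cish. By that annotation they are thus within the gene and not upstream of it.
Socs3: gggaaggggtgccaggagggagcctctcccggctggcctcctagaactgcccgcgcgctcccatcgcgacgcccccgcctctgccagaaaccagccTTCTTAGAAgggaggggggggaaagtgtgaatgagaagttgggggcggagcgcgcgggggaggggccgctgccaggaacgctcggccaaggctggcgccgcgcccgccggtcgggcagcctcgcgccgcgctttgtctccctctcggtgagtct
Cish: cagttTTCCTGGAAagTTCTTGGAA

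The match in Socs3 begins 154 bases before the RefSeq start (chr11:117969512-117969520). The matches in Cish begin at the RefSeq start base (chr9:107296659-107296667) and 11 bases after it (chr9:107296670-107296678). Of 32851 mouse promoter windows, 8.3% held at least 1 match and 0.457% held 2 or more. The wider palindrome TTCNNNNGAA, which occurs in 6.95% of windows, was in none of the windows of these members. A match is a run of letters and not a measured binding site. Of the members whose window held the palindrome, Socs3 rose and Cish did not pass the threshold.

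Cish (ENSMUSG00000032578.7, chromosome 9, 107296026 to 107302784, plus strand) encodes the founding member of the family, a target gene of STAT5 downstream of growth hormone, erythropoietin and interleukin receptors. Its levels were 5.05, 3.10 and 4.58 CPM in WT and 5.02, 4.09 and 4.80 CPM in GFAP-IL6. The groups overlapped, with the lowest and the highest level both in WT. The log2 fold change was 0.15 ± 0.22 (SE; edgeR adjusted p of 0.73), and its interval of -0.33 to 0.64 was the widest of the members tested. The sign of Cish turned without WT replicate 2. Reads of Cish are the least certain of the set, since 11.53% of its exon bases lie in exons of genes on the opposite strand (Gm17040 and Gm17041), and the sources used here do not state whether strand was used in counting.

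Socs2 (ENSMUSG00000020027.16, chromosome 10, 95385362 to 95417180, minus strand) encodes the main brake on growth hormone receptor signalling and is, like Cish, a STAT5 target. It had 10.1, 8.53 and 10.6 CPM in WT and 8.96, 6.999 and 9.04 CPM in GFAP-IL6. The groups overlapped, and GFAP-IL6 replicate 2 was the lowest library. The log2 fold change of -0.21 ± 0.16 (SE) was the lowest of the members tested, with an interval of -0.55 to 0.13 and an edgeR adjusted p of 0.46. Neither of the STAT5 targets thus passed the test.

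Socs1 (ENSMUSG00000038037.4, chromosome 16, 10782240 to 10785536, minus strand) encodes the inhibitor that blocks JAK kinases directly and restrains interferon signalling. WT libraries held 4, 7 and 9 reads of it and GFAP-IL6 libraries 4, 5 and 9, close to the floor of 3 counts. These correspond to 0.348, 0.418 and 0.565 CPM in WT and 0.359, 0.66 and 1.005 CPM in GFAP-IL6, and the groups overlapped. When the filter was omitted, the edgeR estimate on the log2 scale was 0.53 ± 0.56 (SE; adjusted p of 0.683), and a change of Socs1 was not detectable at this depth. Among the target genes of interferon gamma, the cytokine for which Socs1 is best known as an inhibitor, 0 of 7 genes tested passed the threshold in edgeR or DESeq2, with a median log2 fold change of 0.49. Irf1, a transcription factor of that response, and Irgm1, an interferon-induced GTPase, had log2 fold changes of 0.62 and 0.41 with edgeR adjusted p values of 0.0803 and 0.107. At an unadjusted p under 0.05 Irf1, Gbp2, Irgm1 and Ciita were counted, 4 of these 7 genes.

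Socs4, Socs5, Socs6 and Socs7 encode the members with long amino-terminal regions, of which SOCS4 and SOCS5 are linked to epidermal growth factor receptor signalling and SOCS6 and SOCS7 to insulin and growth factor receptors. Socs5 (ENSMUSG00000037104.8, chromosome 17, 87107679 to 87137839, plus strand) had 132, 139 and 134 CPM in WT and 120.4, 128 and 123 CPM in GFAP-IL6. The highest GFAP-IL6 library was below the lowest WT library, as in 12.7% of all genes tested, but by a small margin. On the log2 scale the difference was -0.12 ± 0.08 (SE; edgeR adjusted p of 0.382). Socs7 (ENSMUSG00000038485.5, chromosome 11, 97362551 to 97398542, plus strand) had 151, 120.25 and 141 CPM in WT and 155, 153 and 162 CPM in GFAP-IL6. Here the lowest GFAP-IL6 library exceeded the highest WT library, as in 13.8% of all genes tested, and WT replicate 2 was the lowest. The log2 fold change of Socs7 was 0.19 ± 0.09 (SE), with an edgeR adjusted p of 0.262. Its unadjusted edgeR p was 0.0593, and it was 0.0143 without WT replicate 1 (adjusted p of 0.095) and 0.196 without WT replicate 2. With single libraries left out the estimate ranged from 0.10 to 0.26. The changes of Socs5 and Socs7 were thus not distinguishable from the spread between mice.

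Socs4 (ENSMUSG00000048379.8, chromosome 14, 47276931 to 47296102, plus strand) had 16.5, 21.95 and 21.6 CPM in WT and 19.4, 21.7 and 23.8 CPM in GFAP-IL6. Socs6 (ENSMUSG00000056153.12, chromosome 18, 88665224 to 88927481, minus strand) had 12.5, 19.03 and 18.1 CPM in WT and 16.2, 19.7 and 19.1 CPM in GFAP-IL6. In both genes WT replicate 1 was the lowest library and the groups overlapped. The log2 fold changes were 0.10 ± 0.13 (SE) for Socs4 and 0.13 ± 0.15 (SE) for Socs6, with edgeR adjusted p values of 0.704 and 0.668. Without WT replicate 1 both estimates changed sign, to -0.015 and -0.026, so that no direction can be read for either.

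Pias1 (ENSMUSG00000032405.9, chromosome 9, 62878368 to 62987924, minus strand) encodes a SUMO ligase that restrains activated STAT factors, and Pias3 (ENSMUSG00000028101.16, chromosome 3, 96696384 to 96706070, plus strand) an inhibitor of STAT3. Pias1 had 53.5, 45.2 and 45.5 CPM in WT and 49.7, 49.3 and 47.0 CPM in GFAP-IL6. Pias3 had 24.7, 21.1 and 21.3 CPM in WT and 21.7, 24.7 and 24.1 CPM in GFAP-IL6. The groups overlapped in both genes, and WT replicate 1 held the highest level of both. The log2 fold changes were 0.02 ± 0.09 (SE) for Pias1 and 0.07 ± 0.11 (SE) for Pias3, with edgeR adjusted p values of 0.918 and 0.731. The sign of Pias1 turned without WT replicate 2 or 3. The interval of Pias3, from -0.16 to 0.30, lies entirely below that of Socs3, from 1.52 to 2.33.

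**Figure D2:**
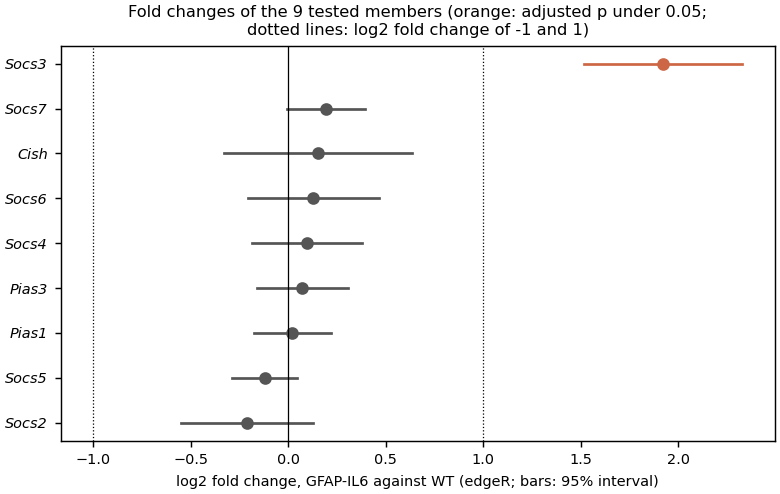
Log2 fold changes of GFAP-IL6 against WT for the 9 members tested, with 95% intervals from edgeR. Socs3, in orange, is at 1.92 with an interval of 1.52 to 2.33, and the intervals of the other 8 members span 0 and lie between the dotted lines at -1 and 1.

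For all 8 members that did not pass the threshold, the 95% interval lay between log2 fold changes of -1 and 1, as it did for 89% of all genes tested, and a 2-fold change in either direction was outside it. The highest of these 8 upper bounds, 0.64 for Cish, was below the lower bound of Socs3, 1.52.

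Levels per length, in TPM, placed Socs5 highest in WT cortex at 85.1 ± 0.601 TPM, followed by Socs7 at 54.5 ± 7.75, Pias1 at 34.7 ± 4.34 and Pias3 at 20.2 ± 2.41 TPM (SD, n = 3 each). Each of these was above the next in all 3 WT libraries, with ranges that did not overlap. Socs2 at 10.05 ± 1.33, Socs4 at 8.07 ± 1.04 and Socs6 at 7.45 ± 1.44 TPM (SD, n = 3 each) followed, and their ranges overlapped from one to the next. Cish at 3.25 ± 0.86 and Socs3 at 2.97 ± 0.243 TPM (SD, n = 3 each) could not be ordered either, and Socs1 was lowest at 1.01 ± 0.248 TPM (SD, n = 3). Among all genes tested, Socs5 stood at the 85.3 percentile of WT level and Socs3 at the 12.7 percentile.

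In GFAP-IL6 cortex Socs3, which had stood beside Cish just above Socs1 in WT, was the fifth of 10 at 11.9 ± 1.92 TPM (SD, n = 3). It was then above Socs4, Socs2 and Socs6, at 9.16 ± 0.872, 9.01 ± 1.30 and 8.7 ± 0.796 TPM (SD, n = 3 each). In each GFAP-IL6 library Socs3 exceeded Socs4, Socs2 and Socs6, with ratios of 1.10 to 1.55, whereas in WT these ratios were between 0.255 and 0.471. The ratio of Socs3 to Cish was 0.69, 1.29 and 0.92 in WT and 2.86, 3.13 and 3.66 in GFAP-IL6. Pias3, the next gene above Socs3, was at 22.2 ± 1.30 TPM (SD, n = 3), and the ranges of Pias3 and Socs3 did not overlap.

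**Figure D3:**
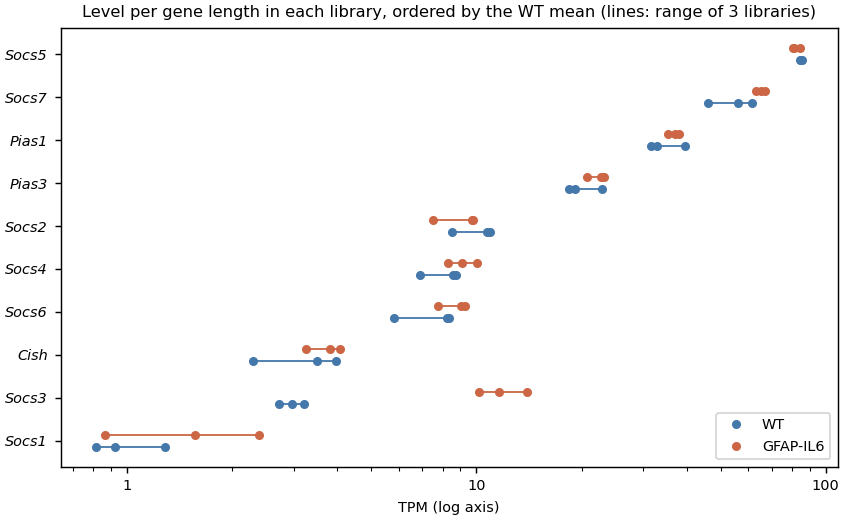
TPM of each member on a log axis, with a point per library and a line over the range of each group, ordered by the WT mean. Socs5 and Socs7 are the highest in both groups, and Socs3 moves from 2.73 to 3.21 TPM in WT to 10.2 to 13.97 TPM in GFAP-IL6.

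Socs1 to Socs7 and Cish summed to 172 ± 8.40 TPM among WT and to 192 ± 5.15 TPM among GFAP-IL6 mice (SD, n = 3 each; two-sided exact permutation p of 0.1, and no lower p can be reached with 3 mice per group). Socs3 made up 1.53%, 1.82% and 1.82% of this sum in WT and 6.15%, 5.40% and 7.08% in GFAP-IL6. The mean share was thus 1.72% ± 0.166 against 6.21% ± 0.841 (SD, n = 3 each), and the groups did not overlap (two-sided exact permutation p of 0.1). The rise was 4.48 percentage points by TPM and 2.18 percentage points where counts were not divided by gene length. Socs5 made up 49.4% ± 2.42 of the sum in WT and 42.9% ± 1.83 among GFAP-IL6 mice (SD, n = 3 each; two-sided exact permutation p of 0.1). Without Socs3 the sum was 169 ± 8.42 TPM against 179.7 ± 3.47 TPM (SD, n = 3 each; two-sided exact permutation p of 0.1), and WT replicate 2 was the lowest library in both sums. TPM and TMM-scaled CPM differed in scale between the groups. Pias1, for example, was at 48.1 CPM in WT and 48.6 CPM in GFAP-IL6, but at 34.7 and 36.8 TPM. A rise of either sum can thus not be read from TPM, whereas the shares within a library do not depend on this scale. Most SOCS family mRNA, by TPM, was Socs5 and Socs7 in both groups.

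**Figure D4:**
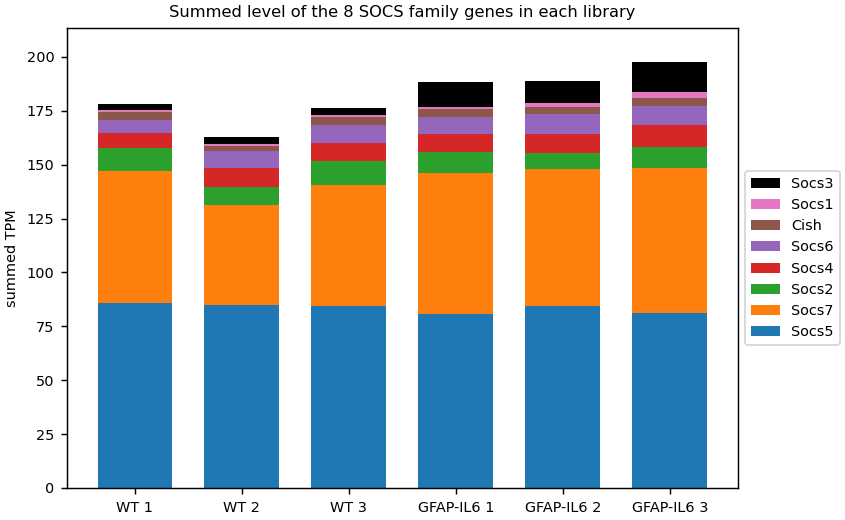
Summed TPM of Socs1 to Socs7 and Cish in each library, with a bar segment per gene. Socs5 and Socs7 fill most of each bar, and the black segment of Socs3 at the top grows from 1.53% to 1.82% of the bar in WT to 5.40% to 7.08% in GFAP-IL6.

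Spread between mice was set beside the spread that counting alone would give. The coefficient of variation of Socs5 was 2.61% in WT and 3.29% in GFAP-IL6, near the 2.28% and 2.99% of counting alone. For Socs3 it was 9.65% in WT, below the 16.2% of counting alone, and 16.1% in GFAP-IL6 against 10.4%. In WT the value exceeded counting for each member other than Socs1 and Socs3. It was highest for Cish, at 24.0% against 12.9%, and Socs6, at 21.6% against 6.73%, among the 9 members tested, and the others ran from 9.23% for Pias3 to 15.1% for Socs4, apart from Socs5.

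The genes that act with these inhibitors were examined next, by lists of general knowledge. Within the SOCS box ligase, 0 of 6 genes tested passed the threshold in edgeR, 1 passed in DESeq2 and 5 had an unadjusted p under 0.05. All 6 had log2 fold changes under 0, with a median of -0.23. Tceb1 (elongin C), the adaptor that the SOCS box binds, had the smallest adjusted p, with a log2 fold change of -0.38 ± 0.11 (SE; edgeR adjusted p of 0.0967), and Tceb2 (elongin B) followed with -0.23 ± 0.09 (SE; adjusted p of 0.198). Without WT replicate 1, 2 of the 6 passed the threshold, Tceb1 among them with an edgeR adjusted p of 0.0213. In that fit 1061 of all genes passed, against 439 in the main fit. Without WT replicate 2 the log2 fold changes shrank to -0.24 for Tceb1 and -0.13 for Tceb2 (edgeR adjusted p values of 0.148 and 0.442). Of 11 enzymes of SUMO conjugation, the pathway of the PIAS proteins, 0 passed in edgeR or DESeq2 and 4 had an unadjusted p under 0.05, with a median of -0.12. Uba2, a subunit of the SUMO activating enzyme, had a log2 fold change of -0.25 ± 0.08 (SE; edgeR adjusted p of 0.123). The relatives Pias2 and Pias4 were at -0.12 and 0.12, with edgeR adjusted p values of 0.4 and 0.606. Without WT replicate 1, 1 gene of this list was called.

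Some other inhibitors of the pathway rose. Of 11 such genes tested, 3 rose, 0 fell and 8 did not pass, with a median log2 fold change of 0.43. Ptpn1, a tyrosine phosphatase that acts on JAK2 and TYK2, rose from 45.1 ± 3.06 to 68.7 ± 1.06 CPM (SD, n = 3 each; log2 fold change of 0.61, edgeR adjusted p of 0.000925). Ptpn6, the SH2-domain phosphatase SHP-1 of blood cells and microglia, rose from 4.81 ± 0.999 to 9.91 ± 0.751 CPM (SD, n = 3 each; log2 fold change of 1.02, edgeR adjusted p of 0.00683). Ptprc, the leukocyte phosphatase CD45, rose most, from 4.37 ± 0.388 to 20.8 ± 3.60 CPM (SD, n = 3 each; log2 fold change of 2.24, edgeR adjusted p of 5.75e-06). Without GFAP-IL6 replicate 3 Ptpn6 had an adjusted p of 0.0642. Ptpn6 and Ptprc are also markers of blood-derived cells and microglia. Without WT replicate 1, 5 genes of this list were called.

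Upstream of the inhibitors, 4 of 11 receptor, ligand and kinase genes rose and 0 fell, with a median log2 fold change of 0.32. Measured against a floor of 3 counts per WT library, Il6 was at least 8.07-fold higher (edgeR adjusted p of 0.00208), and transcripts of the transgene and of the endogenous gene were not separated. Osmr, the oncostatin M receptor chain that pairs with gp130, rose from 3.59 ± 0.229 to 16.1 ± 2.54 CPM (SD, n = 3 each; edgeR adjusted p of 8.36e-06). Jak3 rose from 6.70 ± 0.755 to 17.7 ± 1.35 CPM and the IL6 receptor gene Il6ra from 7.24 ± 0.782 to 13.0 ± 0.561 CPM (SD, n = 3 each; edgeR adjusted p values of 7.37e-05 and 0.00419). With Il6 placed at its lower bound the median was again 0.32. Il6st, the gene of gp130 to which SOCS3 binds, had a log2 fold change of 0.30 ± 0.08 (SE; edgeR adjusted p of 0.0851). Of 7 STAT genes, Stat3 alone passed, with a log2 fold change of 0.80 ± 0.11 (SE; edgeR adjusted p of 0.000858).

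Among target genes of STAT3, the group to which Socs3 belongs, 7 of 12 genes tested rose and 0 fell, with a median log2 fold change of 1.14. Beside Osmr, which is on both lists, the genes with the smallest adjusted p were Il4ra, the receptor gene of interleukin 4, with a log2 fold change of 1.42 (edgeR adjusted p of 0.000289), the protease inhibitor gene Serpina3n with 1.43 (adjusted p of 0.00123) and the adhesion gene Icam1 with 1.24 (adjusted p of 0.00442). Bcl3, Cebpd and Junb, genes of transcriptional regulators, also rose, but Bcl3 and Cebpd had adjusted p values of 0.0586 and 0.149 without GFAP-IL6 replicate 3, Cebpd had 0.0749 without replicate 2, and Junb had 0.0678 and 0.0521 without replicates 1 and 2. Pim1, a kinase gene induced by STAT factors, had a log2 fold change of 0.25 with an edgeR adjusted p of 0.496. Socs3, at 1.92, lay within the range of this list, which reached 3.23 for Bcl3. In the growth hormone and STAT5 list, 1 of 8 genes rose, Csf2rb, a receptor chain of myeloid cells, from 1.16 ± 0.252 to 7.48 ± 1.55 CPM (SD, n = 3 each; edgeR adjusted p of 5.66e-05). Without WT replicate 1, 2 genes of this list were called.

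**Figure D5:**
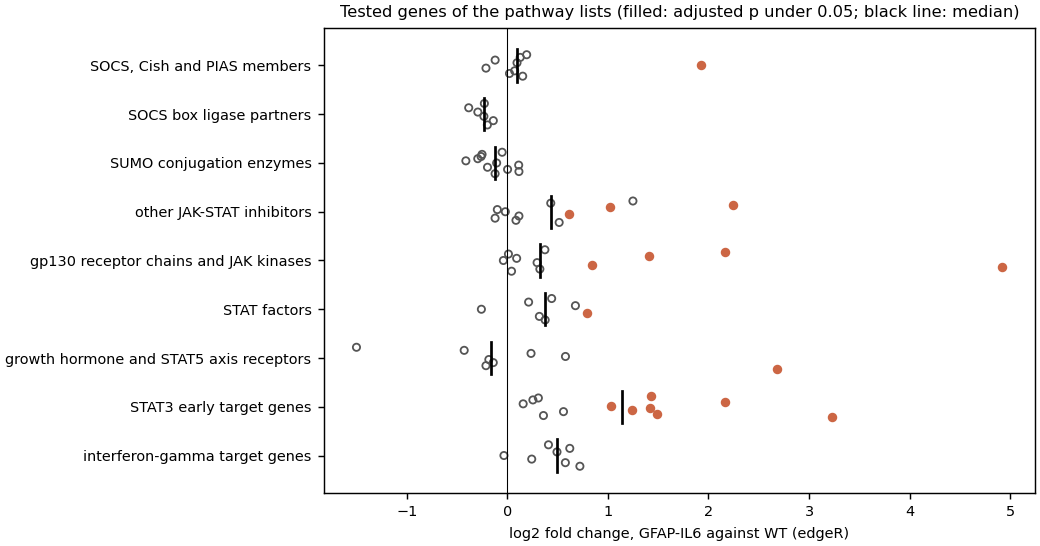
Log2 fold changes of the tested genes of each list, with a point per gene, filled orange where the edgeR adjusted p was under 0.05, and a black line at the median. The STAT3 target list has 7 filled points and a median of 1.14, and the SOCS box ligase and SUMO lists have none. The value of Il6, at the far right, is a fitted one against WT libraries at or under 3 counts.

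Most listed markers of microglia and endothelium rose with Socs3, and most of those of astrocytes did not. Of 10 microglial markers 9 rose, and P2ry12 did not, with a log2 fold change of -0.27 (edgeR adjusted p of 0.291). The sum of the 10 was 439 to 537 CPM in WT and 940 to 1089 CPM in GFAP-IL6. Of 10 endothelial markers 7 rose (4 without GFAP-IL6 replicate 1), with sums of 209.8 to 235 CPM in WT and 365 to 435 CPM in GFAP-IL6. Of 9 astrocyte markers 1 rose, Gfap itself (2 were called in DESeq2 and without WT replicate 2), with sums of 5288 to 6651 CPM in WT and 6235 to 7543 CPM in GFAP-IL6. The astrocyte sums overlapped between groups, and 4 of the 9 log2 fold changes were below 0, with a median of 0.04. All 3 cell types can express Socs3, and the part of these changes in the rise of Socs3 was not tested. Markers of neurons (12425 to 13631 CPM in WT and 12170 to 13201 CPM in GFAP-IL6) and of oligodendrocytes (3397 to 6151 CPM and 3429 to 5312 CPM) had 0 of 10 genes called each in edgeR and DESeq2, with 3 and 0 at an unadjusted p under 0.05, and their sums overlapped between groups. Of 13 leukocyte markers 1 passed the filter on low counts and it was not called, with sums of 1.31 to 4.06 CPM in WT and 3.04 to 3.85 CPM in GFAP-IL6.

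The genes whose pattern over the 6 libraries was most like that of Socs3 were Cyth4, Unc93b1 and Cd300lf, with Pearson coefficients of log2(CPM + 1) of 0.9998, 0.999 and 0.999. Cyth4, a nucleotide exchange factor of blood cells, rose from 10.7 to 27.3 CPM on average, and Unc93b1, which carries Toll-like receptors to endosomes, from 12.8 to 34.4 CPM. Cd300lf, a myeloid receptor gene, was at 0, 1 and 1 counts among WT libraries against 19, 12 and 19 among GFAP-IL6 libraries. The 6 libraries fall into 2 groups, and 315 genes had a coefficient above 0.95.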

How the data were processed

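RNA from frontal cortex of 6 mice was sequenced with TruSeq mRNA libraries. Raw counts per gene were deposited by the authors. By the study's methods, reads were aligned with STAR 2.4 to mm10 and counted over GENCODE vM6 genes with featureCounts; the submitters' processing notes name hg19, whereas the table holds mouse genes. The table also gave gene lengths. Groups and replicate numbers came from sample titles.

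Counts were tested with edgeR 4.0.16 in R 4.3.3 (quasi-likelihood F-test, TMM, filterByExpr, ~ group, Benjamini-Hochberg adjustment), and standard errors were derived from the F statistic. CPM is scaled by TMM, and TPM uses the deposited lengths. The floor was 3 counts. Floors from counts cover counting error only. The edgeR intervals of fold changes were built from the standard errors, so they include the spread between mice. Fits were tested on simulated data. DESeq2 1.42.0, other scaling, no filter, a replicate block, thinning and leaving out each replicate were alternatives. Members, lists and the naming rule were chosen with earlier results of these data known. All members were named; of each list, called genes were named up to 4 by adjusted p, otherwise the 2 smallest, and other genes were chosen after their values were seen. Some genes that this rule names are not reported here.

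Positions came from GENCODE M21 (GRCm38), which matched 32593 of 33000 identifiers. Promoters came from RefSeq (GRCm38.p6). Of the 50-base words in members' transcripts, 9.35% for Cish, 6.14% for Socs6, 4.58% for Socs2 and 0.31% for Socs4 also occur in other genes, and 0% for the rest. The chi-square per degree of freedom between libraries was 2.23 to 20.1 over pairs within and across groups, so no pair was taken as the same library. It cannot tell whether libraries came from separate mice, and all 6 were counted as separate samples by their titles.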

Additional observations from a re-analysis of the deposited data

How the results depend on the processing

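Socs3 passed the threshold as higher in all 11 alternatives, with log2 fold changes from 1.80 to 2.12 and adjusted p values from 5.83e-12 to 0.00119, and it was the only member called in each (1 with and without the threshold on fold change; 1 to 1 when single libraries were left out). Members that did not pass were not called in any alternative. With single libraries left out, log2 fold changes ranged from -0.015 to 0.18 for Socs4 and from -0.026 to 0.23 for Socs6 (both below 0 without WT replicate 1), from -0.038 to 0.28 for Cish (below 0 without WT replicate 2), and from -0.021 to 0.10 for Pias1 (below 0 without WT replicate 2 and, at -0.017, without WT replicate 3). Those of Prlr ranged from -2.07 to 1.16. The number of all genes called, 439, became 1154 without the low-count filter, and ranged from 187 (without GFAP-IL6 replicate 3) to 1061 (without WT replicate 1) when single libraries were left out, with 282 without GFAP-IL6 replicate 2. The number of genes called in the 8 pathway lists, 15 without counting the marker lists, became 26 without the filter and ranged from 12 to 23. The rise in the share of Socs3 was 4.48 percentage points, 2.18 with counts not divided by length, and 4.05 to 4.89 with single libraries left out. With the replicate block the number of all genes called was 750 and that of pathway list genes 19, Tceb1 and Usp18 passed (adjusted p of 0.0364 and 0.0485), and Socs3 had a log2 fold change of 1.92. Deviations from the group mean had correlations of 0.12, 0.02 and 0.05 between same-numbered libraries and from -0.099 to 0.051 between differently numbered ones, so these ranges overlapped. The labels name no pairing, and the shared numbers were not taken as pairs. Whether same-numbered libraries share an effect, and why more genes were called with the block, was not tested. Without the filter Tceb1, Irf1, Fos, Usp18 and Prlr were among the genes that also passed the threshold. Depth limits Socs1, which had 4 to 9 counts per library.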

Other observations

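The prolactin receptor gene Prlr, upstream of Socs2 and Cish, was at 10, 10 and 189 counts among WT replicates 1, 2 and 3, against 12, 17 and 15 among GFAP-IL6 replicates. The estimate on the log2 scale was -1.50 ± 0.90 (SE; edgeR adjusted p of 0.362), and 1.16 without WT replicate 3 (adjusted p of 0.202). WT replicate 3 also held the most counts of the choroid plexus genes Ttr (8766), Kl (491) and Clic6 (263), against at most 358, 51 and 43 in any other library. In the same library Socs2 was at 10.6 CPM and Cish at 4.58 CPM, within the range of the other libraries for Cish and the highest of 6 for Socs2.

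Usp18, an inhibitor of the type I interferon receptor, was at 3, 17 and 15 counts among WT replicates against 14, 17 and 20 among GFAP-IL6 replicates. In CPM the groups did not overlap, and the edgeR adjusted p was 0.131, and 0.0458 without the filter on low counts, so that the call depends on the setting.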
